A study of Mus musculus with 8 samples.

Results

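The genes described here build, fold and clear proteins of the endoplasmic reticulum (ER), and were chosen by name: 47 symbols that cover ER translocation, glycosylation, folding, stress sensing and degradation. All 47 were among the 18806 genes of the table and all 47 passed the filter on low counts that left 14578 genes for the test. They fall into 6 roles: 12 genes of the translocon and signal peptidase, 6 of the oligosaccharyltransferase, 8 disulfide isomerases and lectin chaperones, 7 stress sensors and transcription factors, 10 genes of ER-associated degradation, and 4 folding factors known to be induced by ER stress. Colon tissue came from 8 mice, 4 in each of 2 groups. Colitis was induced in every mouse with dextran sulfate sodium, or DSS, a sulfated sugar polymer that damages the lining of the colon, and the DSS+AP mice were also given Alistipes putredinis (AP), an anaerobic gut bacterium. No mouse without DSS and none with the bacterium alone was sequenced, and each library is a separate mouse drawn at random from its group. Strain, sex, age, doses and days are not given in the sources used here.

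Secreted and membrane proteins enter the ER as they are made, through the Sec61 channel, with the help of the translocon-associated protein complex (TRAP, the Ssr genes). Signal peptidase removes the leader, oligosaccharyltransferase moves a sugar tree onto asparagines, and calnexin, calreticulin and the protein disulfide isomerases fold the chain. When unfolded chains build up, the sensors IRE1, ATF6 and PERK start the unfolded protein response, in which XBP1 and ATF6 raise the transcription of chaperones and of degradation genes. In the colon the goblet cell, which packs the large mucin MUC2, and the plasma cell, which secretes antibody, are known for a large ER. The epithelial IRE1 isoform encoded by Ern2 is known from mucin-producing cells.

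The unfolded protein response acts on promoters through short elements, so the promoters that hold one are shown before the values. The RefSeq promoter table of GRCm38.p6 (250 bases before to 50 after each start) held 38 of the 47 genes and did not hold Sec61a1, Ssr2, Spcs3, Ern2, Atf6, Creb3l1, Derl1, Manf and Hyou1. The ER stress response element, CCAAT followed after 9 bases by CCACG, was searched on both strands and matched 6 of the 38 genes (15.8%) against 37 of the 27025 genes with a promoter (0.137%). Its variant ERSE-II, ATTGG and CCACG with 1 base between them, matched 1 of the 38 (2.63%) against 0.0444% of all genes, and the unfolded protein response element, TGACGTGG, matched 1 of the 38 (2.63%) against 0.714%. ERSE-II shares the letters CCACG with the first element. The 5′ to 3′ windows below follow the strand of the gene, with the fixed letters of the element in capitals. Where the element lies on the opposite strand, the capitals read CGTGG before ATTGG. The first 6 hold the ER stress response element, Herpud1 holds ERSE-II and Txndc5 the unfolded protein response element.
Calr (chr8:84847055-84847113, - strand): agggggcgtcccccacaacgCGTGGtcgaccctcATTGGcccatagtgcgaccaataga
Canx (chr11:50325780-50325838, - strand): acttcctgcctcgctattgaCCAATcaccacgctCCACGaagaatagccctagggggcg
Pdia6 (chr12:17266471-17266529, + strand): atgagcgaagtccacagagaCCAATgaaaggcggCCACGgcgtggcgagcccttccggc
Creld2 (chr15:88819500-88819558, + strand): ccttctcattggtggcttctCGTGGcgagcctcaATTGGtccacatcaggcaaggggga
Syvn1 (chr19:6046512-6046570, + strand): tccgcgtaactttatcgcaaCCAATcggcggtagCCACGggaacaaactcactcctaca
Derl3 (chr10:75893222-75893280, + strand): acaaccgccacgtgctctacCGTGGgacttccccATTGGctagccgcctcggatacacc
Herpud1 (chr8:94386357-94386407, + strand): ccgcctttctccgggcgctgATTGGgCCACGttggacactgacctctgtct
Txndc5 (chr13:38528025-38528072, - strand): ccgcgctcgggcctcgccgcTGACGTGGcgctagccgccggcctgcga
The first 7 windows lie before the start of the gene and overlap no annotated exon. The Txndc5 window lies before 1 of several starts, inside the Txndc5 gene and inside an exon of Gm31834. The Creld2 window is also that of Alg12, a mannosyltransferase gene of oligosaccharide assembly. Elsewhere in the pathway the ER stress response element was in the promoters of 5 of 163 genes (3.07%), namely Alg12, Hspa5, Hsp90b1, Dnajc3 and Ero1b. Among the 6 genes with the ER stress response element, Canx was the only one past the threshold in the comparison of the groups. Txndc5 also passed and Herpud1 did not. Of all 18 tested genes with the ER stress response element 1 was higher and 1 lower, and 29.2% of all genes tested passed. A match describes the letters of the window and is not evidence of a factor bound there.

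The libraries held between 16089081 and 17104290 estimated counts. Values below are in CPM, counts relative to the scaled total of the library, unless a sentence says per length, and 3 counts, the floor of detection, corresponded to 0.167 to 0.186 CPM. Markers of colon epithelium were present in every library, with Krt20 at 717 to 1053 CPM in DSS and 1155 to 1508 CPM in DSS+AP and Cdx2 at 88.7 to 205 CPM in DSS and 219.6 to 299.8 CPM in DSS+AP. A pair of libraries stood apart and return beside the results. DSS 4 held 258752 counts from 12 pancreatic acinar genes, with none of them at 0, where the other libraries held 495 to 985 counts, nearly all from Cela1 (4 to 19 counts without it). DSS+AP 2 had 1159 CPM of the surface colonocyte gene Car1 against 8229 to 13321 CPM in the rest of its group. DSS 4 had a like level of Car1, 1162 CPM, against 2056 to 5312 CPM in the rest of DSS. Slc26a3, another colon epithelium marker, went the other way in both libraries. It had 738 CPM in DSS+AP 2 against 218 to 348 CPM in the rest of that group. In DSS 4 it had 760 CPM against 269 to 346 CPM in the rest of DSS. DSS+AP 2 was the highest DSS+AP library for 39 of the 47 genes (83.0%, against 35.1% of all genes tested) and the highest of all 8 for 30.

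The comparison asked how ER genes differed in colitic colon when the bacterium was given. In DSS+AP colon 10 of the 47 genes rose and 1 fell by the edgeR quasi-likelihood test (adjusted p under 0.05 over all 14578 genes). The genes that rose were Ssr4, Rpn1, Dad1, P4hb, Pdia5, Txndc5, Canx, Ern2, Creb3l1 and Creb3l4, and the gene that fell was Creb3l2. Across all genes tested 29.2% were called, 8.84% as higher and 20.4% as lower, beside 21.3% higher and 2.13% lower among the ER genes. The 47 genes were chosen with earlier results of these data known, and no test of that difference was made. Without DSS+AP 2 the shares of higher calls were close, at 8.51% of the ER genes and 8.82% of all genes. They were 8.51% and 3.59% without DSS 4, and 8.51% and 3.82% without DSS+AP 3. At an unadjusted edgeR p under 0.05, 13 ER genes were higher with all libraries. The number was 13 without DSS+AP 2, 11 without DSS 4, 15 without DSS+AP 1 and 7 without both DSS+AP 2 and DSS 4. The share of all genes at that p is not given here, so these counts have no background. Without both DSS+AP 2 and DSS 4, an alternative chosen after seeing the data, the shares of higher calls were 2.13% and 4.15%. The share of lower calls was still smaller among the ER genes without DSS+AP 2 and without both libraries (2.13% against 19.8% and 14.9%). Over all genes 1288 were higher and 2974 lower, and with no scaling factors 767 and 3211. Every DSS+AP library was above every DSS library for 12 genes (background 10.8%) and below for 2 (background 19.6%, and 30.3% in either direction).

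The changes were small. The median log2 fold change of the 47 genes was 0.11 against 0.02 for all genes tested, 38 of 47 (80.9%) were above 0 against 52.1% of all genes, and 31 of 47 (66.0%) moved by less than 0.25 against 48.1%. Without DSS+AP 2 the median was 0.05 and 29 of 47 were above 0. With another library left out the median reached 0.19 (DSS 1), 0.18 (DSS 2) and 0.22 (DSS+AP 1). The counts moved with single libraries. The number of genes that fell was 2 without DSS 2. The number of genes that rose was 6 when library 3 of DSS was left out, 4 when library 4 of DSS or library 2 or 3 of DSS+AP was, and 5 when library 4 of DSS+AP was. Without DSS 4 and DSS+AP 2 together, Creb3l1 alone rose and Creb3l2 alone fell. In tissue RNA, fewer cells of a type and less RNA per cell cannot be told apart.

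**Figure D1:**
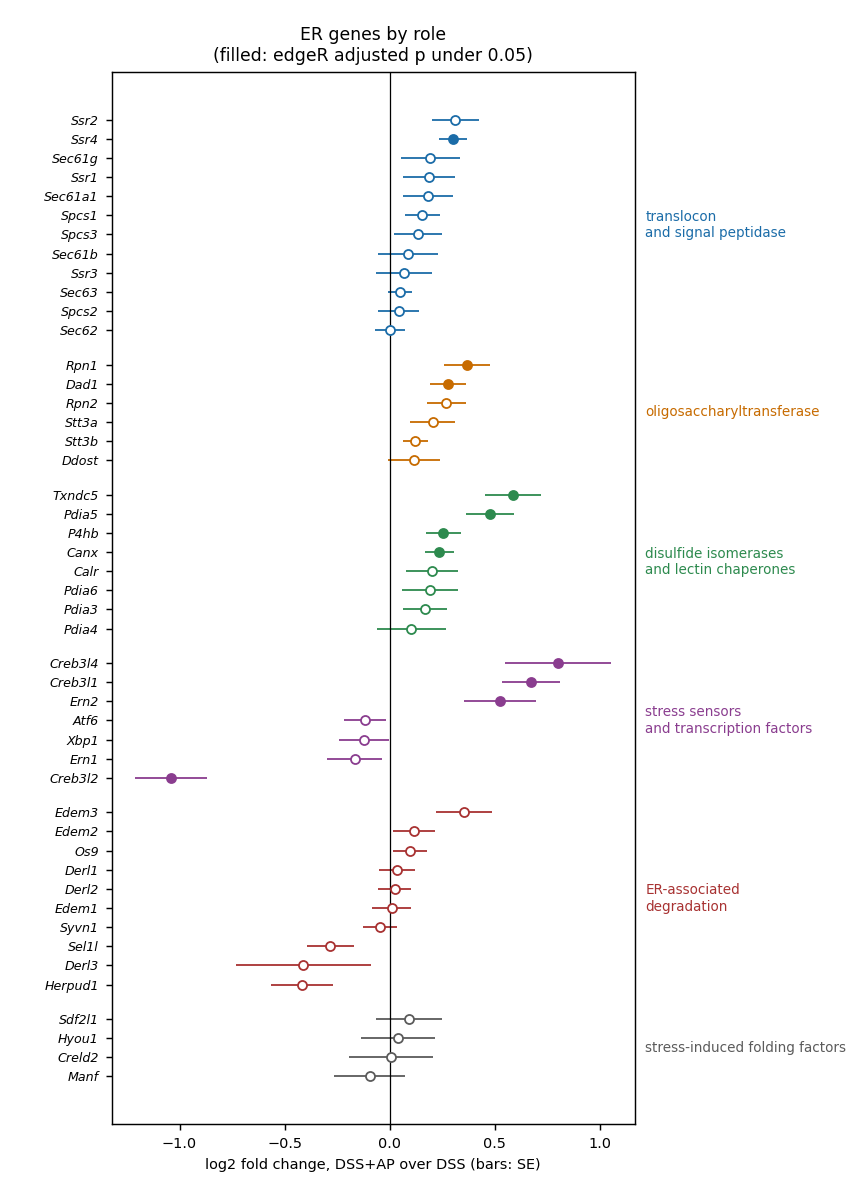
Log2 fold change of each of the 47 genes, DSS+AP over DSS, on the x axis (bars are standard errors), grouped and coloured by role, with filled points for edgeR adjusted p under 0.05. All points of the oligosaccharyltransferase and of the isomerases and lectin chaperones lie right of 0, and Creb3l2 lies farthest left at -1.04.

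**Figure D2:**
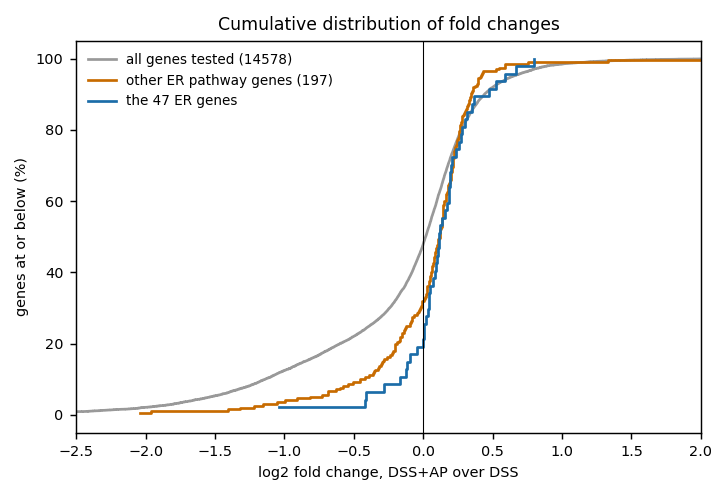
Cumulative share of genes (y axis, percent) at or below each log2 fold change (x axis; genes beyond its ends are not drawn) for all 14578 genes tested, 197 other genes of the ER pathway and the 47 genes. The long left arm of all genes is thin among the 47, of which 9 lie below 0.

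Among the 12 genes of the translocon and signal peptidase only Ssr4 rose (8.33%, near the 8.84% of all genes tested), and none fell. All 12 fold changes were above 0, with a median of 0.14, but 9 were above 0 without DSS+AP 2, 11 with upper-quartile scaling and 10 with no scaling factors. The median was 0.06 without DSS+AP 2, 0.24 without DSS+AP 1 and 0.22 without DSS 1. Ssr4 encodes the delta subunit of TRAP (gene 20832; chromosome X, 73787023 to 73790828, GRCm38.p6, the build of all coordinates here) and was the most abundant gene of this role per length. It measured 108, 104, 109 and 104 CPM in DSS libraries 1 to 4 and 125, 143, 132 and 125 CPM in DSS+AP libraries 1 to 4. The groups did not overlap, and DSS+AP 2 was the highest. The log2 fold change was 0.30 ± 0.0675 (SE; edgeR adjusted p = 0.0121), and the call held without any single library.

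Ssr2, the beta subunit of TRAP, was also above DSS in every DSS+AP library, at 111 to 137 CPM in DSS and 137 to 181 CPM in DSS+AP, but missed the threshold (log2 fold change 0.31 ± 0.111, edgeR adjusted p = 0.0629). Ssr1 and Ssr3, the other TRAP subunits, had fold changes of 0.19 and 0.07 with overlapping groups. The 3 subunits of the Sec61 channel did not pass. Sec61a1, the pore, ran from 265 to 296 CPM in DSS and 268 to 393 CPM in DSS+AP (log2 fold change 0.18 ± 0.118). Sec61b and Sec61g, the small subunits, had fold changes of 0.09 and 0.19. Sec62 and Sec63, which serve chains that enter after synthesis, were the flattest of the role with Spcs2, at 0.00, 0.05 and 0.04. Spcs1 and Spcs3, further subunits of signal peptidase, had 0.16 and 0.13. Sec61a1, Sec62 and Spcs1 share 17.3%, 12.8% and 19.5% of their exon bases with a gene on the other strand, so their counts are uncertain.

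The oligosaccharyltransferase had 2 of 6 genes higher (33.3%, against 8.84% of all genes tested), Rpn1 and Dad1, with a median of 0.24. None was lower, against 20.4% of all genes tested. All 6 were above 0 under every scaling, but 0 of 6 were called with upper-quartile scaling or with no scaling factors. Rpn1 encodes ribophorin I, a subunit that binds the substrate chain near the active site (gene 103963; chromosome 6, 88084473 to 88105304). It measured 341, 297, 317 and 298 CPM in the 4 DSS libraries and 363, 481, 417 and 356 CPM in the 4 DSS+AP libraries, with no overlap. Its log2 fold change was 0.37 ± 0.109 (edgeR adjusted p = 0.0338). Dad1, a small subunit whose name records the cell death seen without it (gene 13135; chromosome 14, 54235485 to 54253929), measured 80.8, 72.7, 72.4 and 69.2 CPM in DSS and 80.0, 101, 88.0 and 88.4 CPM in DSS+AP. Here DSS 1 was above DSS+AP 1, so the groups overlapped, and the log2 fold change was 0.28 ± 0.0867 (edgeR adjusted p = 0.0411).

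Rpn2, ribophorin II and the most abundant gene of the complex per length, measured 342, 323, 311 and 302 CPM in DSS and 355, 433, 405 and 347 CPM in DSS+AP. Its groups did not overlap, yet it missed the threshold (log2 fold change 0.27 ± 0.0917, edgeR adjusted p = 0.0542); without DSS 2 or without DSS+AP 1 the p was 0.0486 and 0.0472. The catalytic subunits did not pass. Stt3a, which acts on chains as they enter, had 0.20 ± 0.106, and Stt3b, which acts on sites that Stt3a skips, had 0.12 ± 0.0610 with every DSS+AP library above every DSS library. Ddost, a structural subunit, had 0.11 ± 0.122. The count of 2 genes was 0 when library 3 or 4 of DSS or library 2 or 3 of DSS+AP was left out, 1 when library 4 of DSS+AP was, and 3 when library 2 of DSS or library 1 of DSS+AP was. Rpn1 lost its call when library 3 or 4 of DSS (edgeR adjusted p = 0.0646 and 0.0889) or library 2 or 3 of DSS+AP (0.0526 and 0.0817) was left out. Dad1 lost it with library 3 or 4 of DSS left out (0.0851 and 0.113) and with library 2, 3 or 4 of DSS+AP left out (0.0739, 0.079 and 0.0742).

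Of the 8 disulfide isomerases and lectin chaperones 4 rose (50%, against 8.84% of all genes tested), Txndc5, Pdia5, P4hb and Canx. None fell, against 20.4% of all genes tested. All 8 were above 0 under every scaling, with a median of 0.22, but 2 were called with upper-quartile scaling or with no scaling factors, and 7 were above 0 without DSS+AP 2. Txndc5, an isomerase with several thioredoxin domains that is known as endothelial PDI (gene 105245; chromosome 13, 38500266 to 38528824), measured 317, 409.9, 462 and 317 CPM in the DSS libraries and 512, 604, 592 and 553 CPM in the DSS+AP libraries. No library of one group reached the other, and DSS 1 and DSS 4 were lowest. The log2 fold change was 0.59 ± 0.135 (edgeR adjusted p = 0.0129). Txndc5 shares 15.9% of its exon bases with Bmp6 and Gm31834 on the other strand, so its count is uncertain.

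Pdia5 encodes a less abundant isomerase (gene 72599; chromosome 16, 35397308 to 35490919). Its values were 46.0, 60.4, 53.5 and 48.3 CPM in DSS and 69.2, 85.3, 69.7 and 65.5 CPM in DSS+AP, again without overlap, with a log2 fold change of 0.48 ± 0.113 (edgeR adjusted p = 0.0148). The Txndc5 and Pdia5 calls held without any single library and were lost without DSS 4 and DSS+AP 2 together (0.0587 and 0.0646).

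P4hb, the classical protein disulfide isomerase and also the beta subunit of collagen prolyl hydroxylase (gene 18453; chromosome 11, 120560298 to 120573253), measured 838, 798, 829 and 774 CPM in DSS and 861, 1056, 990.5 and 956 CPM in DSS+AP. DSS+AP 1 was only just above DSS 1, and the log2 fold change was 0.25 ± 0.0833 (edgeR adjusted p = 0.0479). Canx, the membrane lectin calnexin (gene 12330; chromosome 11, 50293957 to 50325673), measured 536, 507, 498 and 492 CPM in DSS and 572, 611, 623 and 587 CPM in DSS+AP without overlap, a log2 fold change of 0.24 ± 0.0688 (edgeR adjusted p = 0.0323). Its promoter holds the ER stress response element shown above. P4hb lost its call when library 1, 3 or 4 of DSS or library 2, 3 or 4 of DSS+AP was left out (0.0696 to 0.119), and Canx with the same libraries but for library 1 of DSS (0.0543 to 0.0888). The count of 4 genes was 2 when any 1 of those 5 libraries was left out.

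Calr, the soluble lectin calreticulin, was the most abundant of the 47 genes per length, at 1090.2 ± 90.6 in DSS and 1199 ± 216 in DSS+AP (CPM scaled by exon length, SD, n = 4). In CPM it was 938, 776, 923 and 957 in DSS and 941, 1267, 1015 and 908 in DSS+AP, where DSS+AP 2 was far above the rest and the other 3 libraries lay within or just above the DSS range. The log2 fold change of 0.20 ± 0.123 did not pass (edgeR adjusted p = 0.241). Neither did Pdia3, the isomerase partner of the lectins, at 0.17 ± 0.107, Pdia6 at 0.19 ± 0.135, or Pdia4 at 0.10 ± 0.163. Pdia4 had 277 CPM in DSS+AP 2 and 179 to 180.3 CPM in the rest of that group, and was -0.08 without DSS+AP 2.

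**Figure D3:**
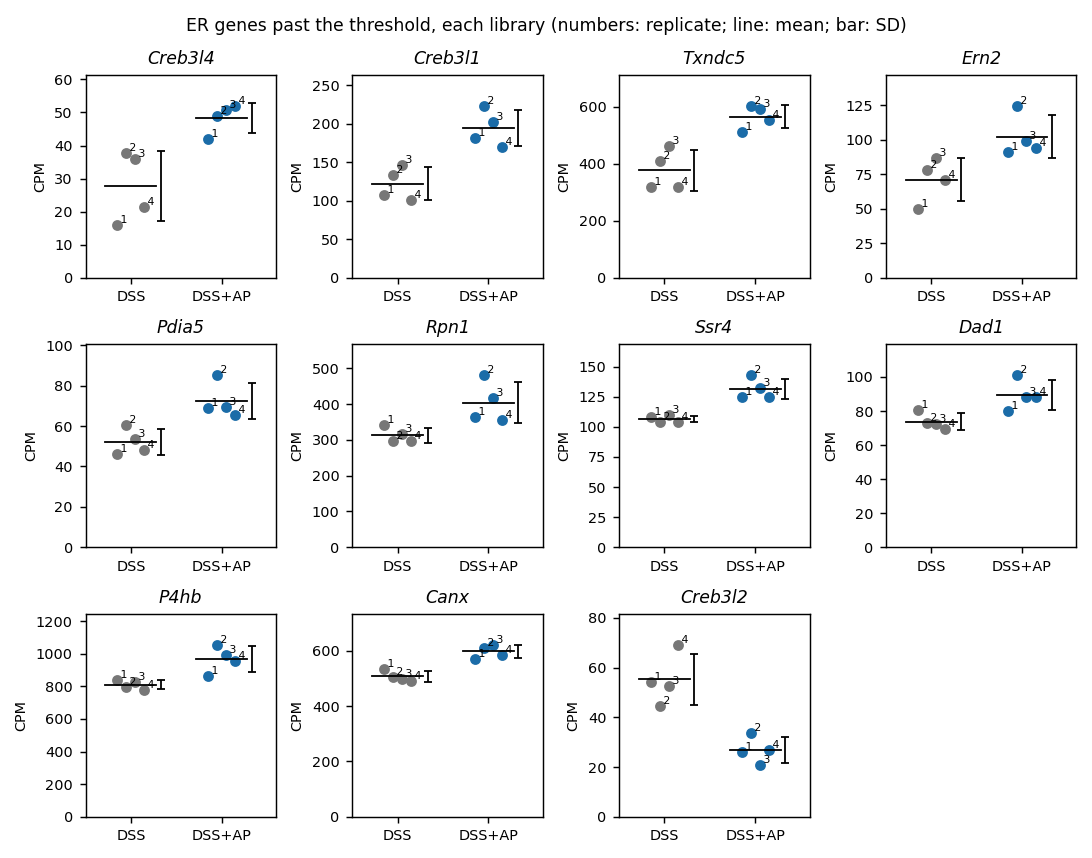
CPM (y axes, from 0) of the 11 genes past the threshold in each library, DSS in grey and DSS+AP in blue, with the replicate number at each point, a line at the group mean and a bar of 1 SD beside it. Dad1 is the gene whose groups overlap, and Creb3l2 is the gene that was lower in DSS+AP.

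The 7 stress sensors and transcription factors split. Ern2, Creb3l1 and Creb3l4 rose (42.9%, against 8.84% of all genes tested). Creb3l2 fell (14.3%, against 20.4% of all genes tested), and Xbp1, Ern1 and Atf6 did not pass. The median was −0.12. It was −0.04 with library 4 of DSS left out, −0.01 with library 1 of DSS+AP left out and −0.07 with library 3 of DSS+AP left out. With library 2 of DSS+AP left out it was −0.18, with no scaling factors −0.16 and with limma-voom −0.17. The widest fold changes of the 47 genes were in this role. Creb3l1 encodes OASIS, a membrane-tethered transcription factor cut free in the Golgi and known in goblet cells of the colon (gene 26427; chromosome 2, 91982328 to 92024170). It measured 108, 134, 146 and 101 CPM in the 4 DSS libraries and 181, 224, 202 and 170.4 CPM in the 4 DSS+AP libraries. All DSS+AP libraries were higher, and the log2 fold change was 0.67 ± 0.138 (edgeR adjusted p = 0.00884).

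Creb3l2, its relative BBF2H7, known for the secretion of matrix in cartilage (gene 208647; chromosome 6, 37327255 to 37442276), went the other way. Its values were 54.3, 44.7, 52.7 and 69.2 CPM in DSS and 26.2, 33.7, 20.7 and 26.8 CPM in DSS+AP, with no overlap and the highest value in DSS 4. The log2 fold change was -1.04 ± 0.171 (edgeR adjusted p = 0.00448), the smallest adjusted p of the 47 genes. Creb3l1 and Creb3l2 kept their calls in all 18 alternatives.

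Creb3l4, a further membrane-tethered member of the family (gene 78284; chromosome 3, 90237498 to 90244582), measured 16.05, 37.7, 35.9 and 21.4 CPM in DSS and 41.9, 48.9, 50.7 and 52.1 CPM in DSS+AP. The DSS libraries were themselves spread, with DSS 1 and DSS 4 low, and DSS+AP 1 was only somewhat above DSS 2. Its log2 fold change of 0.80 ± 0.251 was the highest of the 47 genes (edgeR adjusted p = 0.0413). The call was lost when library 4 of DSS (0.109) or library 2, 3 or 4 of DSS+AP (0.0653, 0.0927 and 0.0869) was left out.

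Ern2 encodes the IRE1 sensor of mucosal epithelium (gene 26918; chromosome 7, 122169893 to 122186239). It measured 49.5, 78.0, 86.6 and 70.5 CPM in DSS and 90.9, 125, 99.1 and 94.2 CPM in DSS+AP, where DSS 1 was the lowest and DSS+AP 2 the highest. The groups did not overlap and the log2 fold change was 0.52 ± 0.172 (edgeR adjusted p = 0.0483). The call was lost when library 1 or 4 of DSS (0.0709 and 0.107) or library 2, 3 or 4 of DSS+AP (0.0971, 0.0898 and 0.0704) was left out. The count of 3 genes that rose in this role was 1 with library 4 of DSS or library 2, 3 or 4 of DSS+AP left out.

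Ern1, the IRE1 sensor found in most cells (gene 78943; chromosome 11, 106397620 to 106487796), measured 30.6, 35.4, 37.1 and 45.5 CPM in DSS and 34.4, 35.8, 27.9 and 34.3 CPM in DSS+AP, overlapping, with DSS 4 the highest (log2 fold change -0.17 ± 0.132, edgeR adjusted p = 0.357). Xbp1, whose messenger IRE1 splices and the most abundant gene of this role per length (gene 22433; chromosome 11, 5520641 to 5525993), measured 276, 239, 306 and 320.1 CPM in DSS and 236, 309, 253 and 250.3 CPM in DSS+AP. DSS 4 was the highest here too, the groups overlapped, and the log2 fold change was -0.12 ± 0.118 (edgeR adjusted p = 0.453). Gene counts do not tell spliced from unspliced Xbp1. Atf6 (gene 226641; chromosome 1, 170704457 to 170868585), the sensor that is itself a transcription factor, measured 94.1, 97.6, 99.5 and 119 CPM in DSS and 93.2, 107, 85.4 and 92.9 CPM in DSS+AP, again overlapping (log2 fold change -0.12 ± 0.0987, edgeR adjusted p = 0.384).

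Per length, Xbp1 was followed by Creb3l1, Ern2, Creb3l4, Atf6, Creb3l2 and Ern1 in DSS colon. Ern2 stood at 64.6 ± 14.0 against 12.0 ± 1.65 for Ern1 in DSS, and at 89.0 ± 15.5 against 10.3 ± 1.36 in DSS+AP (SD, n = 4). Creb3l1 stood at 125 ± 22.7 against 20.6 ± 3.28 for Creb3l2 in DSS, and at 189 ± 26.0 against 9.64 ± 2.196 in DSS+AP. In DSS the neighbours Ern2 and Creb3l4, and Creb3l4 and Atf6, overlapped in their values. In DSS+AP the order was the same but for Ern1 and Creb3l2, which changed places within their spread.

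None of the 10 genes of ER-associated degradation passed by edgeR, against 29.2% of all genes tested. At an unadjusted edgeR p under 0.05, for which no share of all genes is given, 1 was higher and 2 were lower. DESeq2 called 1 higher and 1 lower, against 14.45% and 21.54% of all genes. By limma-voom 1 was higher and 2 were lower, against 16.53% and 23.97% of all genes. The median was 0.02, and ran from −0.03 to 0.08 with each library left out. Herpud1, a scaffold of the degradation complex, ran from 115 to 185 CPM in DSS and 96.0 to 109 CPM in DSS+AP, with the groups apart and DSS 4 the highest (log2 fold change -0.42 ± 0.148, edgeR adjusted p = 0.0609). Its promoter holds the ERSE-II shown above. Sel1l, the adaptor of the ubiquitin ligase Syvn1, had -0.28 ± 0.113 (0.0887), and Syvn1 itself -0.05 ± 0.0824. Without DSS 4 the fold changes were −0.24 for Herpud1 and −0.17 for Sel1l, and without DSS 2 Herpud1 passed (0.0488).

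Edem3, one of 3 Edem genes that trim mannose from failed glycoproteins, had 0.35 ± 0.132 (edgeR adjusted p = 0.0723) and passed without DSS 2 (0.0103), while Edem1 and Edem2 had 0.01 and 0.11. Os9, the lectin that reads the trimmed sugar and the most abundant gene of this role per length (gene 216440; chromosome 10, 127094259 to 127121160), measured 189.9, 219, 209 and 212 CPM in DSS and 233, 199, 229 and 227 CPM in DSS+AP, overlapping and nearly level (log2 fold change 0.10 ± 0.0799, edgeR adjusted p = 0.376). Derl1 and Derl2, membrane proteins of the export channel, had 0.03 and 0.02. Derl3, the derlin known from secretory cells such as plasma and acinar cells (gene 70377; chromosome 10, 75893398 to 75895941), was the least abundant of the 47 genes per length. It measured 2.51, 2.77, 3.35 and 6.27 CPM in DSS and 2.16, 3.68, 2.79 and 2.54 CPM in DSS+AP. DSS 4, the library with acinar counts, was the highest, and the log2 fold change of -0.41 ± 0.320 (edgeR adjusted p = 0.351) was −0.04 without it. DSS 4 was the highest DSS library for 8 of the 10 degradation genes, against 25.5% of all genes tested.

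The 4 folding factors known to be induced by ER stress also did not pass, where 29.2% of all genes tested did. None of the 4 reached an unadjusted edgeR p under 0.05 or a call by DESeq2 or limma-voom. Manf, a secreted survival factor and the most abundant of them per length (gene 74840; chromosome 9, 106888753 to 106891938), measured 217, 155, 161 and 190.3 CPM in DSS and 164, 222, 160.2 and 131 CPM in DSS+AP (log2 fold change -0.09 ± 0.169, edgeR adjusted p = 0.695). The groups overlapped, with DSS 1 and DSS+AP 2 high. Hyou1, the nucleotide exchange factor of the chaperone BiP, had 0.04 ± 0.175, Sdf2l1, a partner of ER J proteins, 0.09 ± 0.157, and Creld2, an isomerase-like factor, 0.01 ± 0.200. DSS+AP 2 was the highest of all 8 libraries for all 4. Without it the fold changes were −0.25 for Manf, −0.17 for Hyou1 and −0.20 for Creld2.

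**Figure D4:**
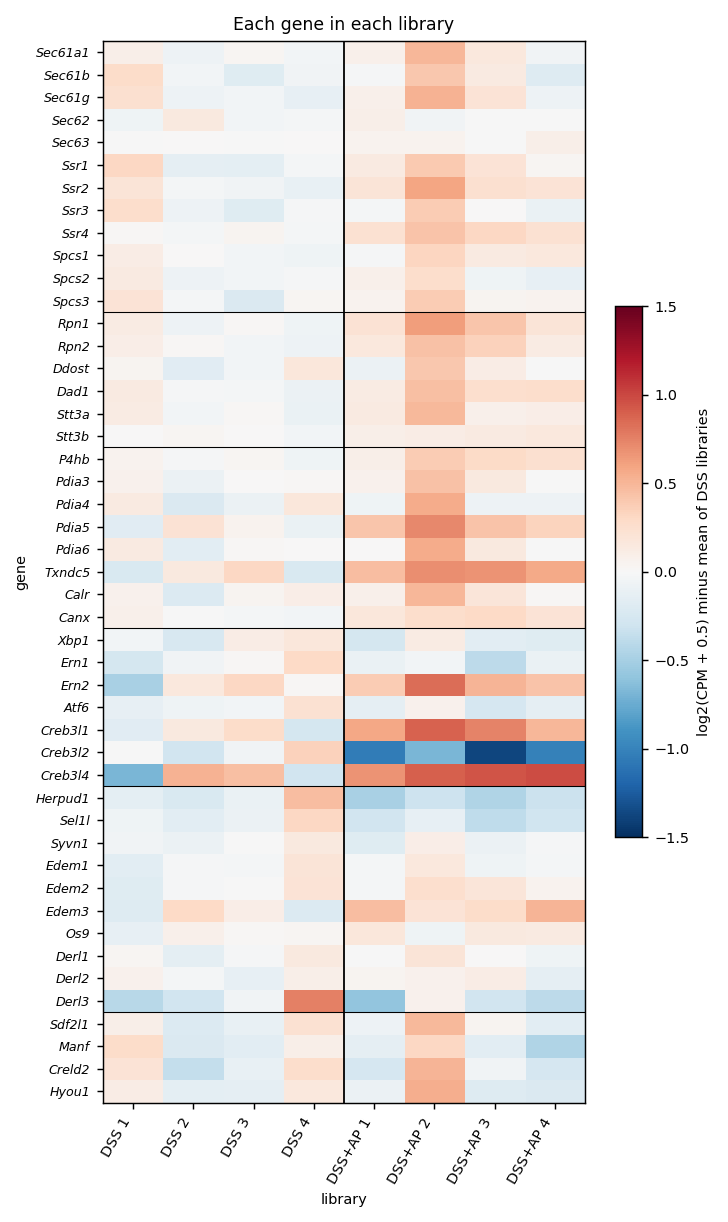
Each of the 47 genes (y axis, by role) in each library (x axis), coloured by log2(CPM + 0.5) minus the mean of the 4 DSS libraries, red for higher and blue for lower. The column of DSS+AP 2 is red through most roles, the Creb3l2 row is blue in all DSS+AP libraries, and the DSS 4 column is red for Herpud1, Sel1l and Derl3.

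The mean of each role was also taken in each library. Relative to the DSS mean, the isomerases and lectin chaperones stood at 0.15, 0.51, 0.26 and 0.16 on the log2 scale in DSS+AP libraries 1 to 4, and the oligosaccharyltransferase at 0.10, 0.42, 0.22 and 0.14. The stress-induced factors stood at -0.14, 0.46, -0.09 and -0.27, so only DSS+AP 2 was above the DSS mean. Within DSS they ran from -0.23 to 0.18.

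**Figure D5:**
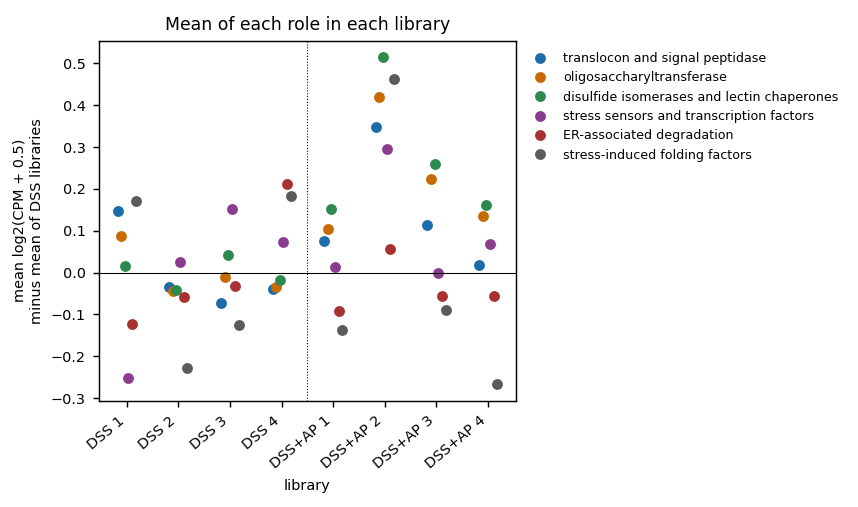
Mean log2(CPM + 0.5) of the genes of each role in each library, minus the mean of the 4 DSS libraries (y axis), with libraries on the x axis and roles in colour. In DSS+AP 2 every role is above 0, from 0.06 for degradation to 0.51 for the isomerases and lectin chaperones.

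Other genes of the pathway came in 6 lists chosen with earlier results of these data known. Of 197 tested 32 were higher (16.2%) and 20 lower (10.2%), with a median of 0.12. Over all genes tested the shares were 8.84% and 20.4%. Of 26 genes that target chains to the ER 4 rose (15.4%) and none fell (median 0.11). Asna1, which delivers tail-anchored proteins, went from 39.7 ± 0.222 to 49.9 ± 1.71 CPM (SD, n = 4; log2 fold change 0.33 ± 0.0607, edgeR adjusted p = 0.00598). Sec11c, a catalytic subunit of signal peptidase, had 0.37 ± 0.0928, and Srp68, of the signal recognition particle, 0.24 ± 0.0631. Of 30 genes that assemble the sugar tree or its donors 6 rose (20%) and none fell (median 0.19). Among them were Pmm2, which makes mannose 1-phosphate, at 0.34 ± 0.0757, and Alg6, a glucosyltransferase, at 0.54 ± 0.122. Magt1, a subunit of the Stt3b complex, rose by 0.25 ± 0.0601. Without DSS 4 the higher counts were 1 for targeting and 3 for sugar assembly, which also had 3 without DSS+AP 3. With no scaling factors they were 2 and 3, and with upper-quartile scaling 3 and 3. Sec11c and Srp68 lost their calls without DSS 4 (0.0549 and 0.0598), and Srp68 also without DSS 1 (0.0589).

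Of 38 genes of the COPII and COPI coats, which carry cargo out of the ER and back, 13 rose (34.2%) and none fell (median 0.21). But with upper-quartile scaling 9 rose and 1 fell, and with no scaling factors 6 rose and 1 fell. Copb2 and Copz1, subunits of COPI, had 0.38 ± 0.0760 and 0.35 ± 0.0695 (edgeR adjusted p = 0.00777 and 0.00815), and Preb, which loads the COPII GTPase, had 0.36 ± 0.0888 (0.0174). The count was 7, 8 and 3 with library 1, 3 or 4 of DSS left out, and 7 with library 3 or 4 of DSS+AP left out.

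Of the 55 other folding genes 6 were higher (10.9%) and 15 lower (27.3%), against 8.84% and 20.4% of all genes tested (median −0.07). Agr2, the isomerase of mucin-producing cells, rose from 931 ± 148 to 1569.5 ± 299.6 CPM (SD, n = 4; log2 fold change 0.75 ± 0.162, edgeR adjusted p = 0.0104). The lower genes with the smallest p were Plod2, a collagen lysyl hydroxylase, at -2.04 ± 0.334, Uggt2, a folding sensor of glycoproteins, at -1.05 ± 0.176, and Clgn, a calnexin relative of the testis, at -1.96 ± 0.341 with at most 1.39 CPM. Plod1, Plod3, P4ha1, P3h1, Crtap, Serpinh1 and Fkbp10, which also modify or fold collagen, were among the 15 lower genes. They are named because of that role, after their values were seen. P4ha2, a listed gene of the same role, was not among the lower genes. P4hb, the beta subunit of collagen prolyl hydroxylase, was higher. In the same libraries 8 of 8 fibroblast markers fell, from summed levels of 2507 to 5788 CPM in DSS to 1341 to 2097 CPM in DSS+AP (Col1a1 -1.42, Pdgfra -1.20), and the part of that in the collagen enzymes was not tested. The higher count was 2 with library 4 of DSS or library 3 or 4 of DSS+AP left out. The lower count was 9 and 8 with library 1 or 4 of DSS left out, 7 with library 1 of DSS+AP and 8 with library 3 or 4 of DSS+AP.

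Hspa5, which encodes BiP, and Hsp90b1, which encodes GRP94, are the classical targets of the unfolded protein response and did not pass. Hspa5 measured 1101, 836, 900.4 and 1239 CPM in DSS and 866, 1310.5, 791 and 779 CPM in DSS+AP (log2 fold change -0.12 ± 0.194, edgeR adjusted p = 0.657). Hsp90b1 measured 1013, 776, 815 and 1028 CPM in DSS and 911, 1348, 878 and 804 CPM in DSS+AP (0.12 ± 0.175, edgeR adjusted p = 0.634). In both, DSS+AP 2 was the highest library and the rest of its group lay within or below the DSS range. Without DSS+AP 2 the log2 fold change was -0.32 for Hspa5 (edgeR adjusted p = 0.124) and -0.07 for Hsp90b1. For Hspa5 it was -0.0147 without DSS 4, and between those values with any other library left out.

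Among 16 genes of the PERK branch 1 rose (6.25%) and 3 fell (18.75%), near the 8.84% and 20.4% of all genes tested (median 0.02). Ppp1r15a, whose product restarts translation, fell from 23.2 ± 2.203 to 13.2 ± 0.182 CPM (SD, n = 4; log2 fold change -0.81 ± 0.0954, edgeR adjusted p = 0.00320), and Cebpb, also a factor of inflammation, had -1.32 ± 0.217 (0.00451). Phgdh, of serine synthesis, rose by 1.33 ± 0.253 (0.00676). Atf4, the transcription factor of the branch, had 0.22 ± 0.0780 (0.0603), and passed without DSS 2 (0.0482) or without DSS+AP 4 (0.0391). Ddit3, which encodes CHOP, had -0.01 ± 0.150 (0.960). The higher count was 2 and 3 with library 1 or 2 of DSS left out and 2 with library 4 of DSS+AP left out. Of 32 other degradation genes 2 rose (6.25%) and 2 fell (6.25%), with a median of 0.05. Among them were Man1c1, a Golgi mannosidase, at -1.16 ± 0.161, and the ubiquitin-conjugating enzymes Ube2j2 at 0.27 ± 0.0633 and Ube2g2 at -0.29 ± 0.0688. Here the higher count was 5 with library 2 of DSS left out and 1 with library 1, 3 or 4 of either group left out, and the lower count was 1 with library 1 or 3 of DSS+AP left out, where Ube2g2 missed the threshold (0.0541 and 0.0505). With no scaling factors 1 of these genes rose and 5 fell, and with upper-quartile scaling 1 rose and 3 fell.

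Markers of the secretory and other cells of the colon moved as follows, and their part in the ER results was not tested. Over all genes tested 8.84% were higher and 20.4% lower. Of 10 goblet cell markers, Spdef, the goblet transcription factor, rose (0.98 ± 0.232, edgeR adjusted p = 0.0146), Tff3 fell (-0.84 ± 0.271, 0.0464; not with library 1 or 4 of DSS or any 1 DSS+AP library left out), and 8 did not pass. Muc2 was at 8036, 15445, 16679 and 10102 CPM in DSS and 16836, 18061, 19338 and 17551 CPM in DSS+AP, above in every library but not called (0.107). Summed goblet levels ran from 22380.5 to 47159 CPM in DSS and 28446 to 34564 CPM in DSS+AP. DSS 1 and DSS 4, the lowest DSS libraries for Muc2, were also the lowest for Txndc5, Pdia5, Ern2, Creb3l1 and Creb3l4. Muc2 does not stand for the list: DSS 4 was the highest DSS library for 6 of the 10 goblet markers and for their sum. It was the highest DSS library for 25.5% of all genes tested. Of the 10 goblet fold changes 5 were above 0 and 5 below, with a median of -0.23. The higher goblet count was 2 without DSS 1 or DSS 3 and 3 without DSS 2.

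Of 9 plasma cell markers none rose and 2 fell (22.2%, near the 20.4% of all genes tested), Prdm1 (-1.08 ± 0.128) and Cd38 (-0.60 ± 0.162). Their summed levels were 1186 to 1662 CPM in DSS and 1038 to 1319.5 CPM in DSS+AP for the 9 markers. Jchain, the antibody joining chain, had -0.08 ± 0.216. The lower count was 1 with library 1, 3 or 4 of either group left out. Of 12 colon epithelium markers 3 rose, Krt20, Vil1 and Cdx2, and none fell, with summed levels of 15555 to 21622 and 16748 to 30753 CPM. The count was 1 without DSS 4 or DSS+AP 3. In smooth muscle 9 of 10 markers fell, from 2835 to 4614 CPM summed in DSS to 1332 to 2724 CPM in DSS+AP. All 8 macrophage markers fell, from 547 to 1270.0 CPM to 403 to 595 CPM, but 4 did with library 3 or 4 of DSS left out, 3 with library 1 or 3 of DSS+AP and 5 with library 4 of DSS+AP. DSS+AP 2, highest of its group for most ER genes, was also the highest DSS+AP library for 10 of 10 smooth muscle, 8 of 8 fibroblast and 8 of 8 macrophage markers. Of the 12 acinar markers only Cela1 passed the filter on low counts, and its groups overlapped.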

How the data were processed

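RNA of 8 colon samples, 4 DSS and 4 DSS+AP, was taken up from estimated counts per gene that the authors deposited, 1 column per library, not normalized to depth. Per the submitters' processing notes, HISAT2 2.1.0, Bowtie2 2.2.5, RSEM 1.2.8 and GRCm38.p6 were used, without the role of each. Column-purified RNA and a SMARTer messenger RNA kit were used, per the labels' protocols. The sources used here do not say whether counting used strand. Between 10.7% and 11.5% of values per library were not whole.

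After rounding, low genes were removed by filterByExpr, TMM gave the scaling factors, and groups were compared with edgeR 4.0.16 in R 4.3.3 (quasi-likelihood F test, robust estimation, no covariates, two-sided), with Benjamini-Hochberg adjustment over 14578 genes and a threshold of 0.05. Standard errors of log2 fold changes come from the estimate and its F statistic and include the spread between mice. The floor of 3 counts covers counting error only. Levels per length divide counts by the exon union of GENCODE M21 and scale to a common total over 18080 genes. They are approximate, since RSEM's own lengths were not used. The alternatives were other scaling factors and filters, a fit without robust estimation, a replicate block, each library left out, DESeq2 1.42.0 and limma-voom (limma 3.58.1) with quality weights, plus 1 chosen after seeing the data. The steps were tested on simulated data. Figures were drawn with matplotlib 3.10.9.

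The 47 genes, the other lists and the markers were chosen with earlier results of these data known. Values of every library are given for genes past the threshold without overlap, the most abundant of each role, Dad1, Xbp1, Ern1, Ern2, Atf6 and Derl3. Of each other list up to 3 called genes with the smallest p are named, and Hspa5, Hsp90b1, Ddit3, Atf4 and Agr2. Promoters and coordinates are RefSeq's for GRCm38.p6.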

Additional observations from a re-analysis of the deposited data

Results flagged for a closer look

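In groups of 4 libraries, a library was singled out where its gap to the nearest other library, divided by the range of the group, exceeded the 95% critical value of Dixon's ratio for 4 values. Of 140 combinations of gene and group 9 did (6.43%), where chance gives about 1 in 20. DSS+AP 2 was the high library in 7 of the 9.

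Ssr2, of the TRAP complex, had 181 CPM in DSS+AP 2 against 137 to 142 CPM in the rest of the group (ratio 0.893). Spcs3, of signal peptidase, had 152 CPM against 119 to 120.3 CPM (0.966), and Stt3a, the catalytic subunit of oligosaccharyltransferase, 317 CPM against 238 to 248 CPM (0.871). Pdia4, an isomerase, had 277 CPM against 179 to 180.3 CPM (0.986), and Edem1, of mannose trimming, 227 CPM against 195 to 199 CPM (0.851). Hyou1 and Hspa5, chaperones known to rise with ER stress, had 322 CPM against 190.5 to 208 CPM (0.869) and 1310.5 CPM against 779 to 866 CPM (0.836). In the DSS group, Herpud1 had 185 CPM in DSS 4 against 115 to 125 CPM (0.848), and Sec62 had 128 CPM in DSS 2 against 110.4 to 113 CPM (0.862). None of these 9 genes passed the threshold in the comparison of the groups.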

How the results depend on the processing

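Over 18 alternatives, 17 of them planned, Creb3l1 and Creb3l2 kept their calls in all 18, Pdia5 and Txndc5 in 17, Ssr4 in 16, Creb3l4 in 13, Rpn1 in 10, Dad1, Canx and Ern2 in 9, and P4hb in 5. No called gene changed direction. The genes that rose numbered 5 with upper-quartile scaling, 5 with no scaling factors, 14 with DESeq2, 11 with limma-voom, 4 to 12 with each library left out, and 1 without DSS 4 and DSS+AP 2 together. The genes that fell numbered 2 with no scaling factors, 2 with DESeq2, 3 with limma-voom and 1 to 2 with each library left out. Over all genes, higher calls were 767 with no scaling factors, 1950 with no low-count filter, 2107 with DESeq2, 2410 with limma-voom, 525 to 2101 with each library left out, and 605 without DSS 4 and DSS+AP 2 together, and lower calls 1985 to 3086 with each library left out. The causes of these differences were not tested.

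Of the 4 pairs of samples with the same replicate number, only those numbered 3 deviated together (correlations across genes −0.159, −0.538, 0.499 and −0.315 for numbers 1 to 4), so the numbers were not taken to pair mice. With a replicate block the genes that rose numbered 5 and the one that fell 1, over all genes 582 rose and 1967 fell, Ssr4 missed the threshold (edgeR adjusted p = 0.0508) and Creld2 was -0.0147.

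Directions reversed only among genes that were not called. With no scaling factors the log2 fold changes were -0.0433 for Sec62, -0.0016 for Spcs2, -0.0324 for Edem1, -0.0083 for Derl1, -0.0213 for Derl2, -0.0349 for Creld2 and -0.0006 for Hyou1, and with upper-quartile scaling -0.0233 for Sec62, -0.0142 for Edem1, -0.0009 for Derl2 and -0.0148 for Creld2. With at least 1 CPM in 4 libraries Sec62 was -0.0059 and Creld2 -0.0025; with no low-count filter Syvn1 was 0.0259 and Ddit3 0.0619; Ddit3 was 0.0043 with RLE scaling and 0.0045 with DESeq2. With limma-voom the values were -0.0209 for Pdia4, -0.0459 for Edem1, -0.0172 for Derl1, -0.0315 for Sdf2l1, -0.1533 for Creld2 and -0.092 for Hyou1. Without DSS 4 and DSS+AP 2 together they were -0.0525 for Sec61b, -0.057 for Ssr3, -0.0471 for Spcs2, -0.0224 for Pdia4, -0.1161 for Creld2, -0.1175 for Hyou1, -0.0067 for Hsp90b1 and 0.1417 for Ddit3. With each library left out the ranges were -0.0278 to 0.2105 for Sec61b, -0.0128 to 0.1108 for Sec62, -0.0436 to 0.1926 for Ssr3, -0.0347 to 0.1109 for Spcs2, -0.076 to 0.2162 for Pdia4, -0.0922 to 0.0573 for Syvn1, -0.0405 to 0.0851 for Edem1, -0.0174 to 0.1074 for Derl1, -0.0142 to 0.0787 for Derl2, -0.0649 to 0.203 for Sdf2l1, -0.2494 to 0.0341 for Manf, -0.2 to 0.1471 for Creld2, -0.1681 to 0.1403 for Hyou1, -0.0662 to 0.2114 for Hsp90b1 and -0.084 to 0.1074 for Ddit3.

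On simulated libraries of this size and depth (14488 genes, 200 changed) edgeR found 22.4% of the 1.5-fold changes, 74.6% at 2-fold and 91.9% at 4-fold, and 8 of its 135 calls were false. In the data 4262 genes were called. With fewer changed genes the adjustment is stricter, so the simulated shares do not give the recovery in the data. Most fold changes of the 47 genes were under 1.5-fold.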

Other observations

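Ratios between related genes were chosen after their values were seen and are given without a test. Of 4 ratios, 2 did not overlap between the groups. Per length, Ern2 over Ern1 was 4.34 to 6.53 in DSS libraries and 7.40 to 9.94 in DSS+AP libraries. Creb3l1 over Creb3l2 was 3.96 to 8.15 in DSS libraries against 17.3 to 26.5 with the bacterium. Creb3l1 was above and Creb3l2 below in every DSS+AP library, so their ratio had to separate. Stt3a over Stt3b overlapped, at 0.590 to 0.677 against 0.595 to 0.806, and so did Canx over Calr, at 0.262 to 0.333 and 0.246 to 0.329. A ratio alone shows unequal change of its 2 genes and not which of them changed. Gene by gene, Creb3l1 was called higher and Creb3l2 lower. Ern2 was called higher (edgeR adjusted p = 0.0483) and Ern1 was not called (0.357).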
